A study of Mus musculus with 10 samples.

Results

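The genes described here are 31 genes of glycolysis and of the entry of its product, pyruvate, into mitochondria, chosen by name from the 30295 rows of the expression tables. They comprise 1 glucose transporter, 18 genes of glycolysis and its fructose-2,6-bisphosphate control, 4 genes that make or move lactate, and 8 genes of mitochondrial pyruvate uptake and oxidation. All 31 were found and all 31 passed the filter on low counts, which left 15839 genes for testing. RNA was sequenced from intestinal stem cells sorted from 10 C57Bl/6 mice, each giving 1 library. Active stem cells came from mice carrying Lgr5-EGFP-IRES-CreER, a reporter expressed from the Lgr5 gene, and reserve stem cells from mice carrying Hopx-CreER::LSL-tdTomato, in which a Cre recombinase driven by Hopx switches on a red reporter that descendants of the cell inherit. Mice were fed ad libitum (AL, unrestricted food) or under calorie restriction (CR), which gave 3 Lgr5 AL, 3 Lgr5 CR, 2 Hopx AL and 2 Hopx CR libraries. The labels give neither the degree and length of the restriction nor the age of the mice. Each of the 5 isolations held 1 AL and 1 CR mouse of the same reporter line, isolations 1 to 3 for Lgr5 and 4 and 5 for Hopx. Replicates 1 to 3 of the Lgr5 groups came from isolations 1 to 3, and replicates 1 and 2 of the Hopx groups from isolations 4 and 5. The cell population, the reporter line and the isolation therefore cannot be told apart in any comparison of Hopx with Lgr5 cells.

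Glycolysis splits glucose into pyruvate in the cytosol. Pyruvate is then either reduced to lactate by lactate dehydrogenase and exported by monocarboxylate transporters, or carried into the mitochondrial matrix by the pyruvate carrier, a pair of MPC1 and MPC2, and turned into acetyl-CoA by the pyruvate dehydrogenase complex. Pyruvate dehydrogenase kinases phosphorylate that complex and switch it off, so that they hold pyruvate back from oxidation. In the intestinal crypt, stem cells and their neighbours are known to differ in how they divide pyruvate between lactate and mitochondria, and the hypoxia-inducible factor HIF-1 and MYC are known activators of many of these genes.

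Levels below are counts scaled to library size by the TMM method (CPM), unless TPM is named. The libraries held 20251400 to 87215700 estimated counts, and the members had 0 to 151 counts at the least abundant gene, Ldhb, and 29233 to 173123 at the most abundant, Ldha. Pairs of libraries of 1 group correlated at 0.957 to 0.982 (Pearson, log2 CPM across genes). Lgr5 mRNA, which should mark the active population, stood at 75.0 to 269.9 CPM in the 6 Lgr5 libraries and at 69.3 to 158 CPM in the 4 Hopx libraries. Hopx mRNA was no higher in the Hopx libraries, at 81.9 to 116.4 CPM against 116.1 to 153.5 CPM in the Lgr5 libraries. Markers of absorptive enterocytes were at a higher level under CR: all 12 had a higher fitted level under CR in both populations, although 0 of 12 passed edgeR's adjusted test. Averaged over both, 7 had an unadjusted p under 0.05 (14.5 percent of all genes) and DESeq2 called 5 (3.92 percent). The summed level of the 12 ran from 6773 to 30418 CPM in Lgr5 AL, 23401 to 31824 in Lgr5 CR, 10454 to 14248 in Hopx AL and 22165 to 24456 in Hopx CR. The Lgr5 AL library of isolation 1, at 30418 CPM, lay within the range of the CR libraries and apart from the other Lgr5 AL libraries. Summed Paneth cell markers (9 genes) were 205727 and 83083 CPM in Hopx AL and 61751 and 97874 in Hopx CR, against 16016 to 65658 in the Lgr5 libraries. In Hopx cells 8 of these 9 genes had a lower fitted level under CR, with 0 called. Enteroendocrine markers (11 genes) all had a lower fitted level under CR in Hopx cells, with 0 called and sums of 10551 and 11581 CPM under AL and 10975 and 3949 CPM under CR. Markers of tuft cells, a chemosensory epithelial type, were lower under CR in Lgr5 cells for 8 of 8 genes (median log2 fold change -1.91), with sums of 206 to 460 CPM under AL and 72.8 to 106 CPM under CR. Of these, 0 passed edgeR's adjusted test, 7 had an unadjusted p under 0.05 (9.78 percent of all genes) and DESeq2 called 7 (2.25 percent). In Hopx cells their sums were 389 and 144 CPM under AL and 365 and 196 CPM under CR. No gene was at 0 in every library, and the part of these cells in the results below was not tested. In such bulk libraries, fewer cells of a type and less RNA per cell cannot be told apart.

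By length-corrected level (TPM, in which a gene's counts are divided by transcript length), Ldha, the lactate dehydrogenase subunit that favours lactate formation, was the most abundant of the 31 genes, with a median of 1478 TPM over the 10 libraries. It was followed by the enzymes of the later, energy-yielding steps and their neighbours: enolase Eno1 at 723 TPM, glyceraldehyde-3-phosphate dehydrogenase Gapdh at 626, triosephosphate isomerase Tpi1 at 546, pyruvate kinase Pkm at 433 and aldolase Aldoa at 345. The hexokinase members, which trap glucose as its phosphate, stood lower, with a median of 8.16 TPM for Hk2 and 4.48 TPM for Hk1. Hkdc1, a hexokinase-like gene outside the 31, had 68.8 TPM. Slc2a1 (GLUT1), the 1 glucose transporter among the 31, had 11.2 TPM. Outside the 31, the glucose transporters Slc5a1 and Slc2a2 stood higher. On TPM scaled by TMM their medians were 411 and 55.2, against 10.9 for Slc2a1. Among mitochondrial genes the carrier subunits Mpc1 (279 TPM) and Mpc2 (149 TPM) stood above the dehydrogenase subunits Pdha1 (120.0 TPM) and Pdhb (98.8 TPM). Neighbours in this order were often not separable: Eno1 ranged over libraries from 321 to 837 TPM, Gapdh from 314 to 770 and Tpi1 from 335 to 675, ranges that overlap almost wholly. At the bottom, Ldhb, the subunit that favours the reverse reaction, reached at most 3.93 TPM and had 0 counts in the second Hopx AL library. A count of 0 sets only an upper limit there.

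Where several genes encode 1 enzyme, 1 of them usually held most of the level, and that choice was shared by the 4 groups. Ldha made up 99.7 to 100 percent of lactate dehydrogenase TPM in every library, and Aldoa 96.2 to 98.8 percent of Aldoa plus Aldoc. The platelet-type subunit Pfkp was the main phosphofructokinase, the enzyme of the committed step, at 50.8 to 80.8 percent of the 3 genes. The liver-type subunit Pfkl gave 20.8, 41.4 and 45.6 percent in the Lgr5 AL libraries, 16.2, 22.0 and 20.3 percent in Lgr5 CR, and 25.2 to 27.5 percent in the 4 Hopx libraries. Thus 2 of 3 Lgr5 AL libraries stood above all others, and the library of isolation 1 did not. The lactate and pyruvate transporter Slc16a1 (MCT1) exceeded Slc16a3 (MCT4), the exporter typical of glycolytic cells, in all libraries, with 61.8 to 89.0 percent of their sum. Among the pyruvate dehydrogenase kinases Pdk2 was the largest in all 10 libraries, at 45.9 to 59.2 percent of the 3. The Pdk3 share was 31.5 and 31.2 percent in the Hopx AL libraries and 15.5 to 22.6 percent in the other 8. These shares are ratios within a library and do not depend on how libraries are scaled.

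**Figure D1:**
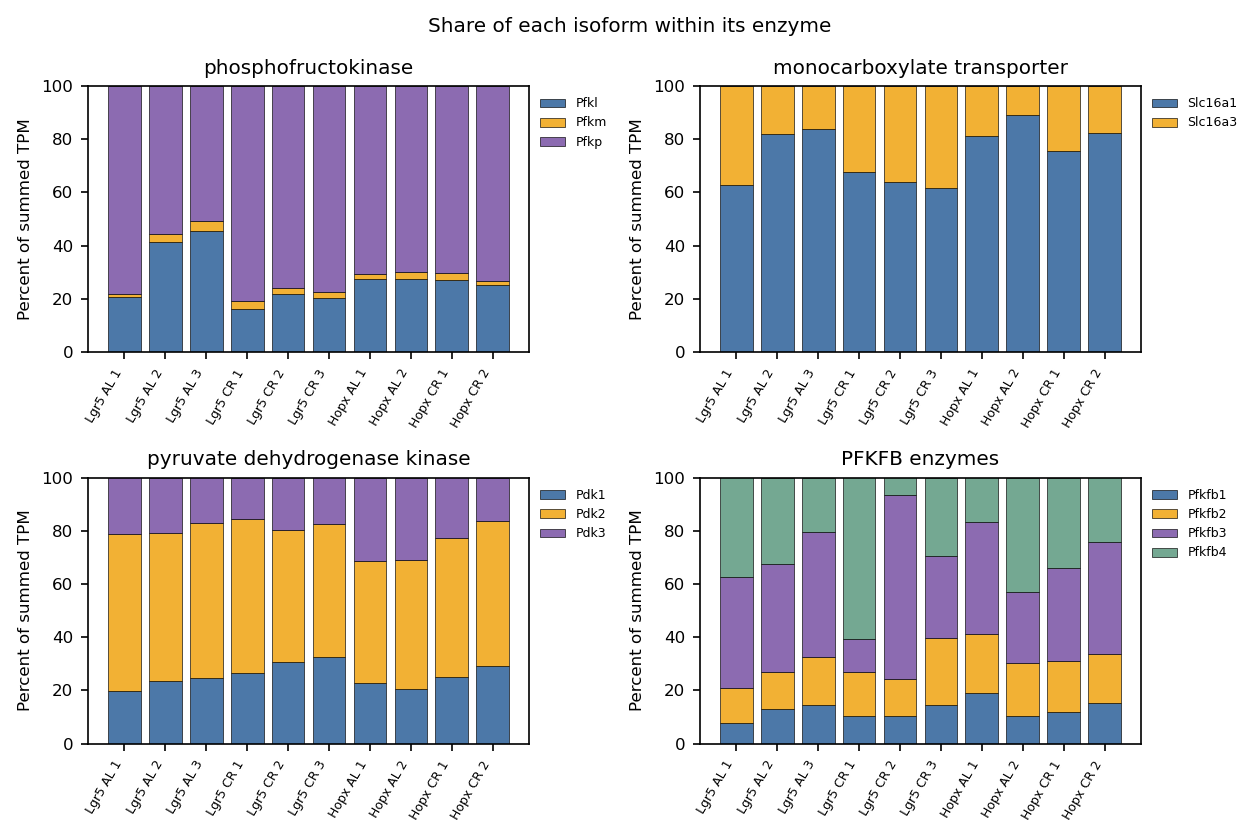
Stacked bars give the percent of summed TPM that each gene contributes to phosphofructokinase, the monocarboxylate transporters, the pyruvate dehydrogenase kinases and the PFKFB enzymes in each of the 10 libraries (x axis). Pfkp, Slc16a1 and Pdk2 are the largest shares throughout, whereas the largest PFKFB gene changes from library to library, with Pfkfb4 between 6.50 and 60.6 percent.

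The first question was how diet related to these genes within each population. Pdk1 stood higher under CR in all 5 isolations, 1.52-fold on average. Higher in all 5 were also Gpi1 and Gapdh, by less on average, and Aldoc, whose Hopx groups overlapped. Pfkl, Hk1, Pgam1 and the scarce Ldhb stood lower under CR in every Lgr5 isolation, 4 of 31 members against 17.2 percent of all genes. Of these, only Pfkl and Hk1 had Lgr5 groups that did not overlap (7.49 percent of all genes). None of these differences passed the adjusted test. No member passed an adjusted p of 0.05 in edgeR's quasi-likelihood test in Lgr5 cells, where 0.0189 percent of all tested genes did (3 genes), nor in Hopx cells, where 0.0126 percent did (2 genes). In Lgr5 cells 22 of 31 members had a higher fitted level under CR, against 51.8 percent of all genes, and the member median log2 fold change was 0.06 against 0.02. In Hopx cells 25 of 31 were higher, against 48.6 percent, and the median was 0.19 against -0.02. At an unadjusted p under 0.05, 3 members were found in Lgr5 cells, where 9.78 percent of all genes were. They were 2 higher (5.57 percent of all genes) and 1 lower (4.21 percent). In Hopx cells 4 were found, against 8.52 percent of all genes, all of them higher under CR (5.41 percent) and 0 lower (3.11 percent). Averaged over both populations, where 22 of 31 members were higher against 49.9 percent of all genes, 5 were found against 14.5 percent, all higher (8.35 percent) and 0 lower (6.17 percent). None was called there, against 0.00631 percent of all genes. DESeq2 called Pdk1 and Pfkl in Lgr5 cells, among 2.25 percent of all genes, and Pdk1 in Hopx cells, among 0.829 percent.

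Isolations of 1 population differed among themselves. The median member difference, CR minus AL on the log2(CPM + 0.5) scale, was -0.03, 0.09 and 0.19 in isolations 1, 2 and 3, and -0.00317 and 0.44 in isolations 4 and 5. Isolation 5 had 26 of 31 members higher in its CR mouse, isolation 4 had 14. In Hopx cells 11 members were higher in both CR mice, against 27.9 percent of all genes, and 2 lower in both, against 29.2 percent. In Lgr5 cells 6 were higher in all 3 CR mice, against 18.1 percent, and 4 lower, against 17.2 percent. The Hopx median of 0.19 leaned on isolation 5: without its CR library the median was 0.09, and without the AL or the CR library of isolation 4 it was 0.38 or 0.34. By step, the 18 glycolysis genes had isolation medians of -0.13, 0.07, 0.32, 0.01 and 0.46. The 8 mitochondrial genes had 0.12, 0.08, -0.12, -0.02 and 0.27.

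**Figure D2:**
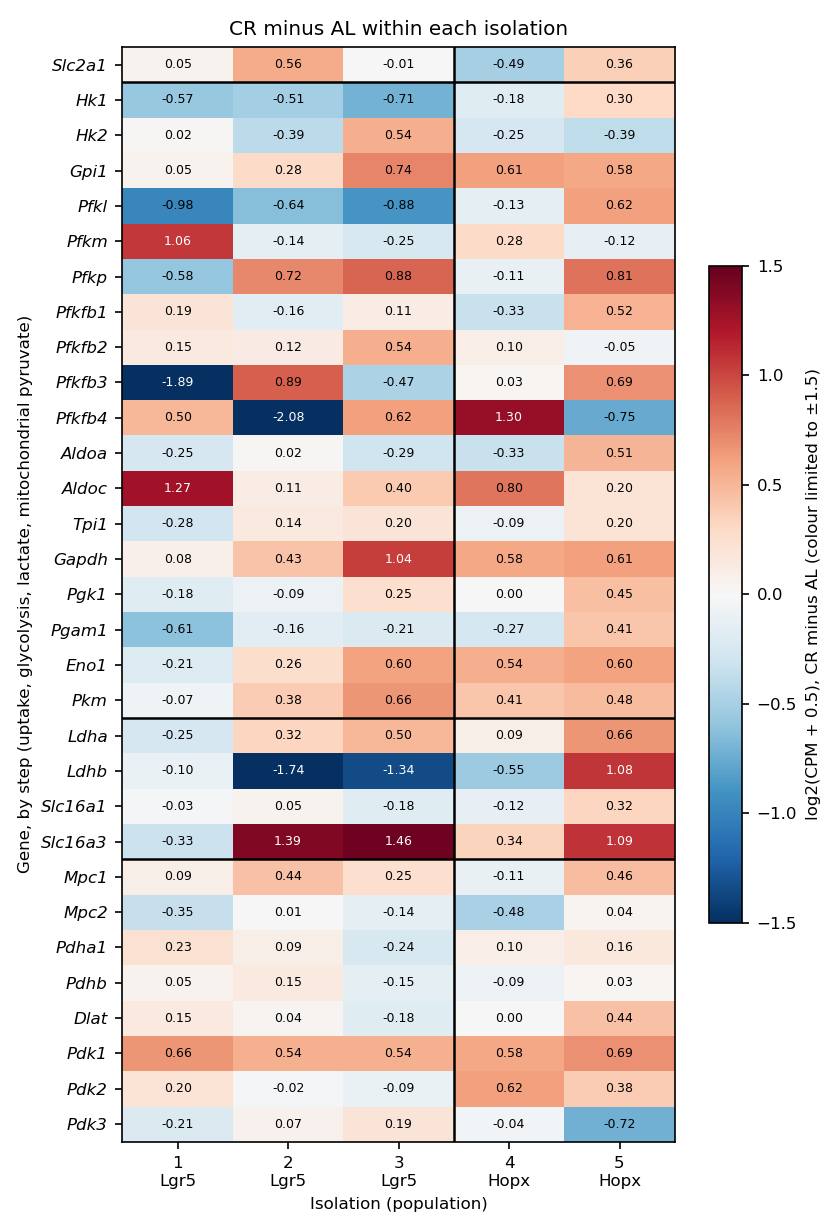
Each row is 1 gene and each column 1 isolation; colour and number give the difference CR minus AL on the log2(CPM + 0.5) scale, and lines separate the 4 steps and the 2 populations. The Pdk1 row lies between 0.54 and 0.69 in every isolation, and the Pfkl row stands at -0.98, -0.64 and -0.88 in the 3 Lgr5 isolations and at -0.13 and 0.62 in the Hopx isolations.

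Pdk1, a pyruvate dehydrogenase kinase and a known HIF-1 target, had the smallest p of all members in each diet comparison. Its level in the Lgr5 AL libraries was 67.4, 72.9 and 80.2 CPM, and in Lgr5 CR 106.6, 105.9 and 116.8 CPM. In Hopx AL it was 62.4 and 57.3 CPM and in Hopx CR 93.7 and 92.6 CPM. The CR libraries lay above all AL libraries in both populations, and the difference within isolations was 0.66, 0.54, 0.54, 0.58 and 0.69 log2 units. The fitted log2 fold change was 0.58 (SE 0.13, edgeR adjusted p = 0.207) in Lgr5 cells and 0.64 (SE 0.16, adjusted p = 0.464) in Hopx cells. Averaged over both populations it was 0.61 (SE 0.10, a 1.52-fold higher level), with an adjusted p of 0.0741, which misses the threshold, over 17 alternatives between 3.99e-06 and 0.276. Among these, DESeq2 gave the lowest value, and leaving out the Lgr5 AL library of isolation 1 gave 0.0317, the 1 omission that put Pdk1 past the threshold. On the unscaled TPM scale the Lgr5 difference was 0.37. The diet effect on Pdk1 did not differ detectably between the populations (difference 0.06, SE 0.21, adjusted p = 1.0).

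Of the 31 members, 4 had the CR mouse higher in all 5 isolations, against 8.71 percent of all genes, and none had it lower in all 5, against 7.66 percent. Beside Pdk1 these were Gpi1, the isomerase that converts glucose 6-phosphate to fructose 6-phosphate, Gapdh and Aldoc. Gpi1 measured 268, 262 and 178 CPM in Lgr5 AL and 278, 319 and 296 CPM in Lgr5 CR. In Hopx cells it measured 205.5 and 190.3 CPM under AL and 315 and 284 CPM under CR. The Gpi1 groups did not overlap in either population, but the margin in isolation 1 was only 0.05 log2 units. Its averaged log2 fold change was 0.47 (SE 0.14, edgeR adjusted p = 0.212). Gapdh, often used as a reference gene, measured 660.3, 635 and 389 CPM in Lgr5 AL and 699, 853 and 802 CPM in Lgr5 CR. In Hopx cells Gapdh measured 592 and 558 CPM under AL and 887 and 855 CPM under CR. Again the groups did not overlap, and the averaged log2 fold change was 0.54 (SE 0.17, adjusted p = 0.222). Aldoc, a minor aldolase gene here, had 6.60 to 9.95 CPM in Lgr5 AL and 10.8 to 16.6 CPM in Lgr5 CR, but its Hopx groups overlapped. Its averaged log2 fold change was 0.61 (SE 0.25, adjusted p = 0.307) and was 0.31 without the first Hopx CR library.

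**Figure D3:**
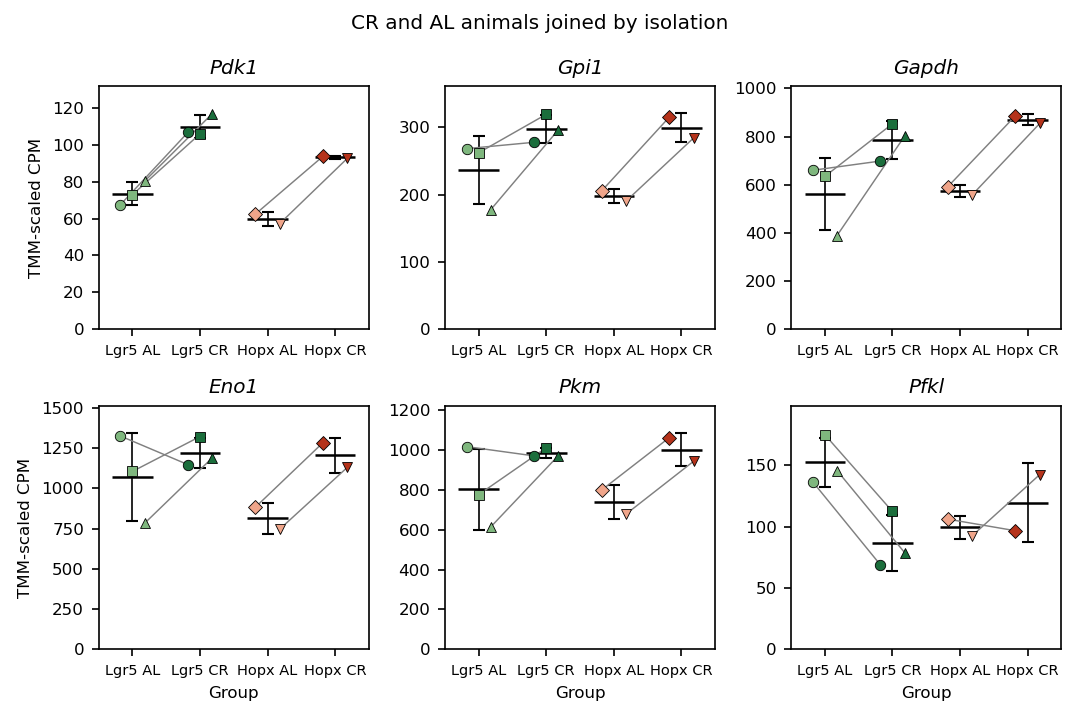
Points are TMM-scaled CPM of single libraries (y axis, from 0) by group (x axis), marker shapes and grey lines join the AL and CR mouse of an isolation, and black bars give the mean and SD (n = 3 for Lgr5, n = 2 for Hopx groups). The CR end is the higher one on all 5 lines of Pdk1, Gpi1 and Gapdh and on 4 of 5 of Eno1 and Pkm, and the lower one on the 3 Lgr5 lines of Pfkl.

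The promoters of these 4 members are shown because they are the genes whose CR mouse was higher in every isolation. Each sequence is the 250 bases before the first listed transcription start, 5′ to 3′ on the gene's strand, from RefSeq on GRCm38.p6. Capitals mark ACGTG or GCGTG on either strand, the core letters of the hypoxia response element.
Pdk1, chr2:71872974-71873223, plus strand: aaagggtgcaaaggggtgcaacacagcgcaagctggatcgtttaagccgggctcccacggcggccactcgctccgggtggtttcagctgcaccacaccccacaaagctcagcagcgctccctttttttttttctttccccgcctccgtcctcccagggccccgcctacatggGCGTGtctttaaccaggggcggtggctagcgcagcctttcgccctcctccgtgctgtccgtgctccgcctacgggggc
Gpi1, chr7:34230337-34230586, minus strand: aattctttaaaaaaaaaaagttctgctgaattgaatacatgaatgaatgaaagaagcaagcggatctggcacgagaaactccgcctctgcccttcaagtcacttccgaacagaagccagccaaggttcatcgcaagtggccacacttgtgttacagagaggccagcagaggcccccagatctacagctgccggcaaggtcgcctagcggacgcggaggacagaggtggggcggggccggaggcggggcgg
Gapdh, chr6:125165774-125166023, minus strand: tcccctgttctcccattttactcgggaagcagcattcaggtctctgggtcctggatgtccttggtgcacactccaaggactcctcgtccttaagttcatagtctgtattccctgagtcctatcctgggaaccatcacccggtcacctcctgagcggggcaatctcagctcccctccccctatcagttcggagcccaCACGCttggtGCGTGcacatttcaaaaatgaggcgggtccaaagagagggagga
Aldoc, chr11:78322823-78323072, plus strand: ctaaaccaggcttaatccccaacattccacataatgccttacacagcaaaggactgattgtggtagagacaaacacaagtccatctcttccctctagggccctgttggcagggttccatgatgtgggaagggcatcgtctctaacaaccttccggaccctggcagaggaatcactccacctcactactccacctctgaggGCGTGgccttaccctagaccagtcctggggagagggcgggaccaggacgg
GCGTG or its reverse complement occurs once before Pdk1 (78 bases upstream), once before Aldoc (50 bases) and 2 times before Gapdh (54 and 44 bases), and neither pentamer occurs in this window before Gpi1. All 31 members matched entries in the promoter table, with 51 listed starts. ACGTG or GCGTG was present in 38 of these 51 windows (74.5 percent), against 38.6 percent of all 32851 windows of that length. The E-box CACGTG, which contains ACGTG, was present in 6 of 51 (11.8 percent) against 6.02 percent. Windows of 1 gene can overlap, base composition was not matched, and a match describes letters, not a bound site.

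The last enzymes of glycolysis had similar differences, with isolation 1 apart. Eno1 measured 1327, 1106 and 783 CPM in Lgr5 AL and 1148.5, 1323 and 1190.0 CPM in Lgr5 CR, which overlap. In Hopx cells Eno1 measured 883 and 747 CPM under AL and 1285 and 1131 CPM under CR, with no overlap. Pkm, which makes pyruvate, measured 1018, 777 and 615 CPM in Lgr5 AL and 971, 1012 and 973 CPM in Lgr5 CR. In Hopx cells Pkm measured 799.6 and 678 CPM under AL and 1063 and 944 CPM under CR. Both were higher in the CR mouse of 4 of 5 isolations, the exception being isolation 1. Their averaged log2 fold changes were 0.38 (SE 0.17, edgeR adjusted p = 0.345) for Eno1 and 0.37 (SE 0.16, adjusted p = 0.334) for Pkm. Not every enzyme of this stretch followed: Tpi1 differed by 0.03 (SE 0.17), Pgk1 by 0.10 (SE 0.14), Pgam1 by -0.11 (SE 0.16) and Aldoa by -0.05 (SE 0.15).

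Pfkl, the liver-type phosphofructokinase subunit, was lower under CR in Lgr5 cells, whereas Pfkp, the more abundant subunit, was lower in isolation 1 (-0.58) and higher in isolations 2 and 3 (0.72 and 0.88). Pfkl measured 137, 175 and 146 CPM in Lgr5 AL and 68.8, 112 and 78.7 CPM in Lgr5 CR, so that every CR library lay below every AL library. In Hopx cells Pfkl measured 106.0 and 92.5 CPM under AL and 96.5 and 142 CPM under CR, 1 isolation in each direction. The fitted log2 fold change was -0.82 (SE 0.22, edgeR adjusted p = 0.261) in Lgr5 cells, between 0.0369 (DESeq2) and 0.738 over the alternatives, and 0.27 (SE 0.27, adjusted p = 0.806) in Hopx cells. The difference between these effects was 1.08 (SE 0.35, unadjusted p = 0.0114, adjusted p = 1.0). Pfkl was the 1 member with an unadjusted p under 0.05 for that difference, where 4.72 percent of all genes had one (2.83 percent higher in Hopx, 1.89 percent lower), and 0.00631 percent passed after adjustment. The difference was above 0 for 20 of 31 members, against 46.5 percent of all genes.

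Hk1 had the same pattern in Lgr5 cells, at 16.8, 16.4 and 18.7 CPM under AL and 11.2, 11.4 and 11.3 CPM under CR (log2 fold change -0.62, SE 0.28, edgeR adjusted p = 0.518). Its Hopx groups overlapped, at 18.7 and 8.94 CPM under AL and 16.4 and 11.1 CPM under CR. Pfkl and Hk1 were the 2 members whose Lgr5 CR libraries all lay below the AL libraries, against 7.49 percent of all genes, and 4 lay all above, against 7.41 percent. In Hopx cells 10 members lay all above, against 21.5 percent, and Hk2 and Pdk3 all below, against 21.1 percent. The other genes of uptake and early glycolysis showed no shared direction. Slc2a1 was higher in the CR mouse of 3 isolations and Hk2 of 2. Pfkp, the main phosphofructokinase gene, ranged from 132 to 419 CPM within Lgr5 AL alone and from 244 to 316 CPM in Lgr5 CR. The PFKFB enzymes, which make and degrade the activator fructose 2,6-bisphosphate, varied between single libraries: Pfkfb4 had 50.0 CPM in the first Lgr5 CR library and 4.71 CPM in the second. Pfkfb3 had 10.3 CPM in the first and 50.6 CPM in the second.

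Among the lactate genes, Ldha measured 2286, 1813 and 1188 CPM in Lgr5 AL and 1919, 2268 and 1683 CPM in Lgr5 CR. In Hopx cells it measured 1968 and 1739 CPM under AL and 2092 and 2749.6 CPM under CR. The Hopx groups did not overlap, but the margin of isolation 4 was 0.09 log2 units against 0.66 in isolation 5. The averaged log2 fold change was 0.27 (SE 0.20, edgeR adjusted p = 0.573). Slc16a3 was higher in the CR mouse of 4 of 5 isolations, by 1.39, 1.46, 0.34 and 1.09 log2 units, and lower in isolation 1, at -0.33. Its averaged log2 fold change was 0.69 (SE 0.31, adjusted p = 0.352). Slc16a1 differed by 0.03 (SE 0.12). Ldhb, at 0 to 3.49 CPM, was too scarce for a difference to be read at this depth.

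The pyruvate dehydrogenase subunits differed little under diet. Pdhb differed by -0.01 (SE 0.10), Pdha1 by 0.07 (SE 0.14) and Dlat by 0.11 (SE 0.11), averaged over both populations. The carrier subunits went apart, Mpc1 at 0.22 (SE 0.15) and Mpc2 at -0.18 (SE 0.15), and neither passed edgeR's adjusted test. Pdk2 measured 104 and 109 CPM in Hopx AL and 159 and 142 CPM in Hopx CR, which do not overlap (log2 fold change 0.50, SE 0.19, edgeR adjusted p = 0.541). In Lgr5 cells Pdk2 ranged from 142 to 166 CPM under AL and from 139.6 to 190.6 CPM under CR, which overlap. Pdk3 went the other way in Hopx cells, with 78.1 and 77.8 CPM under AL and 75.9 and 47.1 CPM under CR (log2 fold change -0.34, SE 0.23, adjusted p = 0.700).

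The second question was how Hopx cells differed from Lgr5 cells. The carrier subunit Mpc2 and the dehydrogenase subunit Pdhb were higher in all 4 Hopx libraries than in all 6 Lgr5 libraries, Pdk1 and Pdk2 were lower on average, and glycolysis genes had no common direction. Again no member passed the adjusted test. Averaged over both diets, 0 of 31 members passed edgeR's adjusted threshold, against 1.33 percent of all genes, and 5 had an unadjusted p under 0.05, against 19.5 percent (2 higher, 10.4 percent; 3 lower, 9.03 percent). Of those 5, 4 were mitochondrial pyruvate genes and 1 was Slc16a3. The member median log2 fold change was -0.02, against 0.0051 for all genes, with 14 of 31 higher against 50.5 percent. Under AL the median was -0.03 (all genes 0.04), 14 of 31 were higher against 52.4 percent, and 0 were called against 0.0189 percent. At an unadjusted p under 0.05, 1 was higher there (9.27 percent of all genes) and 2 lower (8.42 percent; both directions 17.7 percent). Under CR the median was 0.08 (all genes 0.0019), 20 of 31 were higher against 50.2 percent, and 0 were called against 0.0189 percent. At an unadjusted p under 0.05, 1 was higher (3.31 percent) and 0 lower (2.99 percent; both 6.3 percent). The sign of this median was not stable. Under AL it was 0.0872 without the first Lgr5 AL library, 0.0400 without the second and 0.0520 without the second Hopx AL library. Averaged, it was 0.108 without the first Lgr5 AL library, 0.0438 without the second Lgr5 CR library, 0.0254 without the first Hopx CR library and 0.0481 without the second Hopx AL library. Groups did not overlap for 5 members higher under AL (18.8 percent) and 3 lower (15.8 percent), and for 5 higher under CR (11.7 percent) and 4 lower (11.4 percent).

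DESeq2 called Pdk2 under AL, where it called 7.07 percent of all genes, Mpc2 averaged over both diets, where it called 8.71 percent, and no member under CR, where it called 0.955 percent. Mpc2 gave the smallest p. It measured 66.5 to 87.1 CPM in Lgr5 AL, 60.4 to 83.6 CPM in Lgr5 CR, 123 and 127 CPM in Hopx AL and 88.1 and 130.1 CPM in Hopx CR. All 4 Hopx libraries lay above all 6 Lgr5 libraries, with the closest at 88.1 against 87.1 CPM. The averaged log2 fold change was 0.65 (SE 0.15, a 1.56-fold higher level, edgeR adjusted p = 0.0712), between 0.0128 (DESeq2) and 0.688 over 16 alternatives. It passed the threshold in DESeq2 and in edgeR without the filter on low counts (0.0388). On the unscaled TPM scale the difference was 0.09. Pdhb was the other member with all Hopx libraries above all Lgr5 libraries, at 137 to 151 CPM against 112 to 128 CPM. Its averaged difference was 0.26 log2 units (SE 0.10, edgeR adjusted p = 0.194). Over the 16 alternatives this difference ran from -0.28 to 0.30, and it was below 0 on the unscaled TPM scale. Such separation upward held for 2.87 percent of all genes, and downward for 1.93 percent and no member.

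The kinases differed in direction. Pdk2 was lower in Hopx cells under AL, at 104 and 109 CPM against 142 to 166 CPM, and overlapped under CR (averaged log2 fold change -0.31, SE 0.13, edgeR adjusted p = 0.219). Pdk1 had no overlap under either diet, at 57.3 and 62.4 against 67.4 to 80.2 CPM under AL and 92.6 and 93.7 against 105.9 to 116.8 CPM under CR (averaged -0.27, SE 0.11, adjusted p = 0.203). Pdk3 was higher in Hopx AL than in every Lgr5 AL library, 77.8 and 78.1 CPM against 49.9 to 64.8 CPM (0.43, SE 0.21, adjusted p = 0.311). Slc16a3 was lower in Hopx cells, at 8.11 to 20.1 CPM against 12.4 to 35.0 CPM with overlap (-0.74, SE 0.32, adjusted p = 0.237). The 18 glycolysis genes had a median of -0.02 and none had an unadjusted p under 0.05. Markers of active stem cells were lower in Hopx cells for 10 of 10 genes, 2 of them called (summed 3192 to 4421 CPM against 4350 to 10691) and enteroendocrine markers higher for 11 of 11, 5 of them called (summed 3949 to 11581 CPM against 1156 to 6550). Goblet markers were higher for 7 of 8, 1 of them called (summed 4048 to 9127 CPM against 2760 to 5838). Markers of stress and dissociation were lower for 6 of 9, 1 of them called (summed 226 to 313 CPM against 301 to 536). Immune markers were higher for 3 of 9, 1 of them called, with overlapping sums (2220 to 2829 CPM against 1941 to 4938). Of all genes, 1.33 percent were called in this comparison. Paneth markers were higher for 9 of 9 with 0 called, against 1.33 percent of all genes. Of these, 5 had an unadjusted p under 0.05 (19.5 percent of all genes) and DESeq2 called 2 (8.71 percent). Under AL 9 of 9 were higher, 6 at an unadjusted p under 0.05 (17.7 percent) and 4 called by DESeq2 (7.07 percent). Tuft markers were higher for 8 of 8 with 0 called. Under CR all 8 tuft markers had an unadjusted p under 0.05 (6.3 percent of all genes), with 1 called by DESeq2 (0.955 percent). The part of these cells, and of stress and dissociation, in the differences between the populations was not tested.

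**Figure D4:**
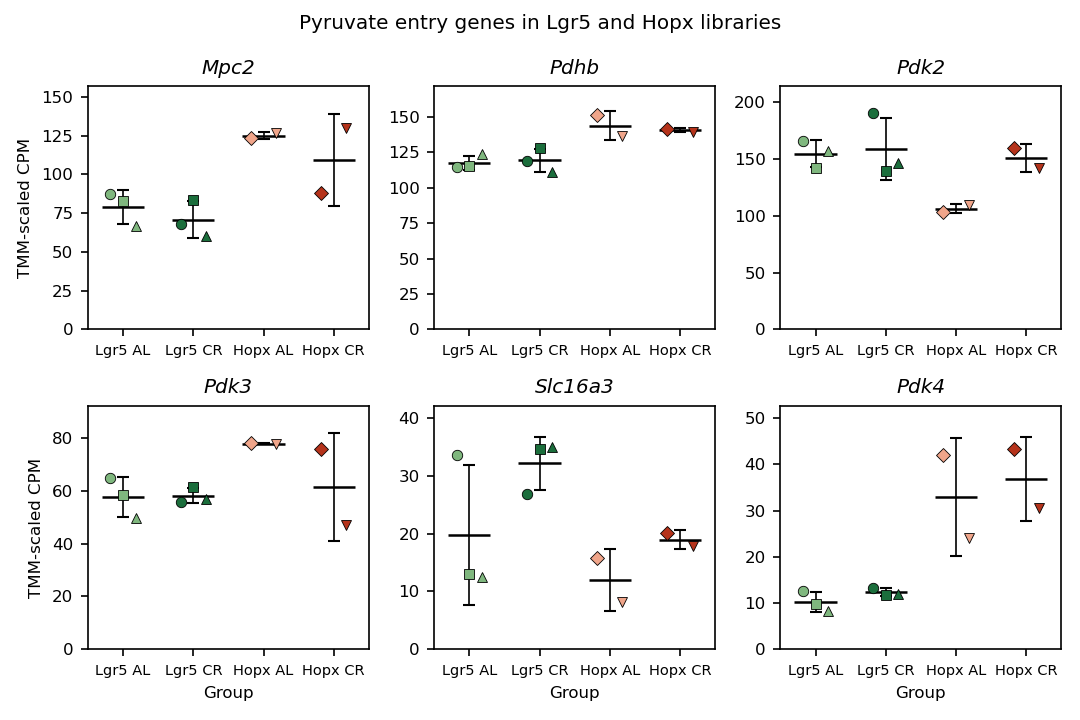
Points are TMM-scaled CPM of single libraries (y axis, from 0) by group (x axis), with mean and SD in black (n = 3 for Lgr5 groups, n = 2 for Hopx groups). Mpc2 and Pdhb lie higher in all 4 Hopx libraries than in all 6 Lgr5 libraries, as does Pdk4, a kinase outside the 31 genes.

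Scaling decided how glycolysis compared between the populations. In the TPM as deposited, the 31 members summed to 3396 and 4041 TPM in Hopx AL and to 5187 to 6645 TPM in the other 8 libraries. On that scale limma called 14 members lower in Hopx AL than in Lgr5 AL, among 3359 genes called in all (21.2 percent). The median of all tested genes was itself shifted there by -0.49 log2 units, and that of the members by -0.75. Of the 31 members, 14 had the opposite sign in the count fit, among them Aldoa, Tpi1 and Gapdh, which were also called. The TPM shifts of all genes were -0.11 for diet in Lgr5 cells, 0.15 for diet in Hopx cells and -0.35 for the populations averaged. After the TPM were scaled by trimmed mean of M-values (TMM), an alternative chosen after seeing the data, the sum was 5327 and 4769 in Hopx AL and 4138 to 6674 elsewhere. No member was then called in any of the 7 comparisons. The summed glycolysis level was 2929 and 2569 scaled TPM in Hopx AL and 3466 and 3571 in Hopx CR, a CR to AL ratio of 1.18 and 1.39 in isolations 4 and 5. In isolations 1 to 3 this ratio was 0.865, 1.15 and 1.31.

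**Figure D5:**
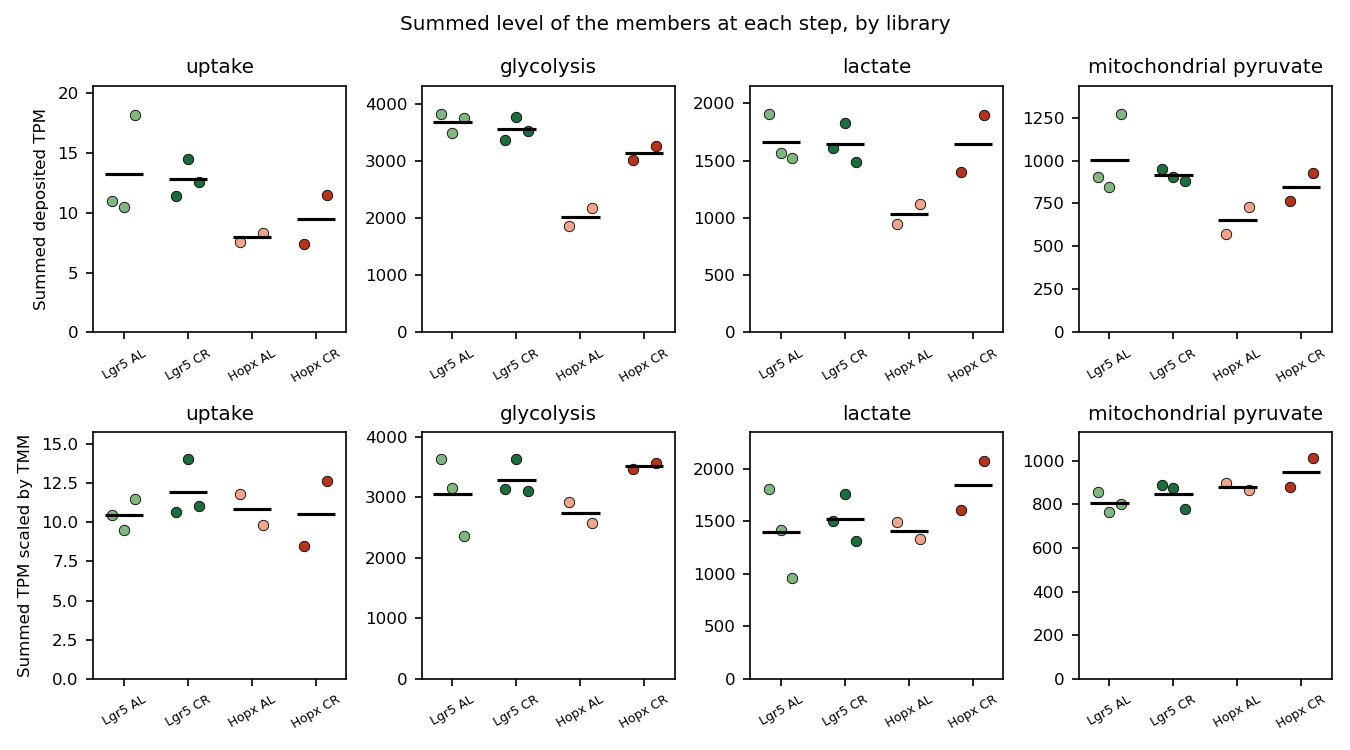
Each point is the sum over the genes of a step (columns) in 1 library, by group (x axis), as deposited TPM (upper row) or TPM scaled by TMM (lower row); bars are group means. The low glycolysis sums of Hopx AL, near 2022 TPM on average in the upper row, overlap the Lgr5 AL libraries in the lower row.

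Other genes of sugar and pyruvate metabolism were read from a list of 34, of which 29 were tested. For diet averaged over both populations 0 passed edgeR's test, and DESeq2 called 1, Fbp1, among 3.92 percent of all genes. For the populations averaged 1 passed edgeR's test (1.33 percent of all genes): Pdk4, a kinase of the same family known to respond to fasting. Pdk4 measured 8.29 to 12.5 CPM in Lgr5 AL, 11.7 to 13.3 CPM in Lgr5 CR, 42.0 and 24.0 CPM in Hopx AL and 43.3 and 30.5 CPM in Hopx CR. All Hopx libraries lay above all Lgr5 libraries, with an averaged log2 fold change of 1.64 (SE 0.20, a 3.12-fold higher level, edgeR adjusted p = 0.0102), and the call held in all 16 alternatives. For diet, 7 of 29 had an unadjusted p under 0.05, against 14.5 percent of all genes, all of them higher under CR (8.35 percent). The smallest p was that of Fbp1, the fructose bisphosphatase of gluconeogenesis (0.76, SE 0.14, edgeR adjusted p = 0.0907). Next were the phosphoglucomutase family gene Pgm2 (0.51, SE 0.14), the hexokinase-like Hkdc1 (0.86, SE 0.28) and the apical glucose transporter Slc5a1 (1.06, SE 0.35). These 4 were higher in the CR mouse of all 5 isolations, against 8.71 percent of all genes. They were picked by p for the same difference, so this shared direction is not separate support. Fbp1 measured 56.8 to 65.5 CPM in Lgr5 AL, 93.1 to 128 CPM in Lgr5 CR, 83.1 and 93.8 CPM in Hopx AL and 115.0 and 161 CPM in Hopx CR. Slc5a1 is also 1 of the 12 enterocyte markers, whose sums are given above; their part in these differences was not tested.

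Of 15 known regulators of these genes, all tested, 0 passed edgeR's test for diet or population. For diet averaged, 2 had an unadjusted p under 0.05 (14.5 percent of all genes) and DESeq2 called Ppargc1a (3.92 percent). For the populations averaged, 2 had an unadjusted p under 0.05 (19.5 percent) and DESeq2 called Myc (8.71 percent). Ppargc1a, a coactivator of mitochondrial genes, measured 7.92 to 10.3 CPM in Lgr5 AL and 15.6 to 30.7 CPM in Lgr5 CR, and 8.44 and 13.9 CPM in Hopx AL and 28.7 and 14.7 CPM in Hopx CR. It was higher in the CR mouse of all 5 isolations (1.13, SE 0.27, edgeR adjusted p = 0.129), against 8.71 percent of all genes. Hif1a mRNA, which encodes the regulated subunit of HIF-1, was also higher in all 5, at 74.2 to 88.5 CPM in Lgr5 AL and 87.1 to 168.5 CPM in Lgr5 CR (averaged 0.54, SE 0.18, adjusted p = 0.239). The Lgr5 groups of Hif1a overlapped, 87.1 CPM lying below the highest AL library. Myc was higher in the CR mouse of all 5 isolations as well (averaged 0.28, SE 0.15, edgeR adjusted p = 0.414). It was lower in Hopx than in Lgr5 cells (-0.49, SE 0.15, adjusted p = 0.128).

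Some members have near-identical copies elsewhere in the genome, between which estimated counts can be divided. Copies of Eno1, Ldha, Mpc1, Pgam1, Pgk1 and Aldoa were looked up. Those of the other members, Gapdh among them, were not. The copies looked up were minor, with Pgam1-ps2 the largest at 33.7 to 57.5 CPM against 231 to 412 CPM for Pgam1. Pgk1-rs7 reached 8.71 CPM, Mpc1-ps 5.19 CPM and Eno1b 0.764 CPM. Among the members looked up, Pgam1 is therefore the one whose level is least certain on this account.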

How the data were processed

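RNA of sorted intestinal stem cells was made into cDNA with SMART-Seq v4 and into Nextera XT libraries and sequenced on a NextSeq 500, per the labels' protocols. Transcript levels were deposited by the authors as estimated counts and as TPM per gene symbol; kallisto and edgeR are named in the submitters' processing notes. Those notes also name GRCh38, a human assembly, although 28423 of 30295 symbols occur in the mouse GENCODE M21 annotation, so no gene coordinates were taken from the files.

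Estimated counts were rounded and filtered with edgeR's filterByExpr (minimum count 10). They were scaled by TMM and tested with edgeR 4.0.16 (R 4.3.3) in 1 quasi-likelihood fit with 4 group means over all 10 libraries. A total of 7 contrasts were tested, with Benjamini-Hochberg adjustment over all 15839 genes. Single-library values are TMM-scaled CPM. Alternatives were DESeq2 1.42.0, RLE size factors, no filter, limma 3.58.1 on log2(TPM + 1) and log2(TPM + 0.1), each library left out, the isolation as a block, and TPM scaled by TMM. The fit was tested on simulated data.

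The labels give each AL and CR pair a shared isolation number, and the pairing comes from there. Deviations of paired libraries from their group means correlated at 0.0825, 0.208 and 0.0712 (Lgr5) and 0.0447 (both Hopx pairs). Libraries are separate mice, and p-values measure the spread between them. Named genes were all 31 members and, from 4 other lists, those past the threshold or otherwise the 4 smallest p per comparison; a sentence may give fewer of them. Marker lists were read as sums. The members and lists were chosen with earlier results of these data known.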

Additional observations from a re-analysis of the deposited data

How the results depend on the processing

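With 2 or 3 mice a group and a biological coefficient of variation of 0.389, no fold change of a member passed edgeR's test, and a missed threshold does not show that levels were equal. DESeq2 called 2 members for diet in Lgr5 cells, 1 for diet in Hopx cells, 1 for diet averaged, 1 for Hopx against Lgr5 cells under AL and 1 averaged over diets. Of all genes it called 2.25, 0.829, 3.92, 7.07 and 8.71 percent in these 5 comparisons. Without the filter on low counts 1 member was called for the populations averaged. With limma on log2(TPM + 1), 14 members were called for the populations under AL and 10 averaged, and 15 and 11 on log2(TPM + 0.1). On log2(TPM + 1) and log2(TPM + 0.1) the member median moved to -0.18 and -0.18 for diet in Lgr5 cells, 0.43 and 0.50 for diet in Hopx cells, and 0.59 and 0.59 for the difference between them. It moved to -0.75 and -0.82 for the populations under AL, -0.15 and -0.15 under CR, and -0.48 and -0.48 averaged. On each of these 2 scales 14 of 31 members had another sign than in the count fit under AL, 13 under CR and 13 averaged, and for diet 11 in Lgr5 and 4 in Hopx cells. Those that turned sign and were called were Aldoa (-0.69, -0.70), Tpi1 (-0.75, -0.75) and Gapdh (-0.72, -0.72) under AL, and Tpi1 (-0.48, -0.48) and Pgk1 (-0.46, -0.46) averaged. The all-gene median shifted with them, and with TPM scaled by TMM no member was called.

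Leaving out 1 library at a time, the member median ranged from 0.0299 to 0.0908 for diet in Lgr5 cells, 0.0889 to 0.380 in Hopx cells, 0.0501 to 0.169 averaged, and 0.0663 to 0.309 for the difference. It ranged from -0.17 to 0.0872 for the populations under AL, 0.0642 to 0.123 under CR and -0.0794 to 0.108 averaged. Leaving out any of 3 libraries turned the sign of the median under AL (first and second Lgr5 AL, second Hopx AL), and any of 4 the averaged one (first Lgr5 AL, second Lgr5 CR, first Hopx CR, second Hopx AL). Members called ranged from 0 to 1 for diet averaged and stayed at 0 in the other 6 comparisons. The 1 was Pdk1 without the first Lgr5 AL library, where 348 genes in all were called. With the isolation as a replicate block, the Pdk1 difference averaged over both populations was 0.61 (adjusted p = 0.0944), and the block changed no call of a named gene. No paired analysis was possible for Hopx against Lgr5 cells because each isolation holds 1 population. Of 3596 values of single members under the alternatives, 381 had another sign than in the main comparison, 136 of them on the unscaled TPM scales, and 48 kept their sign and passed the threshold. The cause of these changes was not tested.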

Other observations

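The tricarboxylic acid cycle, which oxidises the acetyl-CoA made from pyruvate, was read from 16 genes, all tested. For diet averaged over both populations 11 of 16 had a higher fitted level under CR (49.9 percent of all genes), with a median log2 fold change of 0.11. Of the 16, 0 passed edgeR's adjusted threshold, and DESeq2 called 0. An unadjusted p under 0.05 was found for 3, against 14.5 percent of all genes. Fumarase Fh1 was lower in the CR mouse of all 5 isolations (-0.38, SE 0.15, edgeR adjusted p = 0.302), against 7.66 percent of all genes. It measured 170 to 178 CPM in Lgr5 AL and 97.3 to 139.8 CPM in Lgr5 CR. The oxoglutarate dehydrogenase gene Ogdh was higher under CR in Hopx cells (0.70, SE 0.29, adjusted p = 0.558).

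The pentose phosphate pathway, the branch of glucose 6-phosphate toward NADPH and ribose, was read from 7 genes. For diet 4 of 7 were higher and 3 lower, with a median of 0.0045 and 0 called by edgeR or DESeq2, also 0 at an unadjusted p under 0.05. Its first enzyme, G6pdx, differed by 0.27 (SE 0.12, edgeR adjusted p = 0.349), and the isomerase gene Rpe by -0.32 (SE 0.15, adjusted p = 0.361). Transketolase Tkt was lower in Hopx than in Lgr5 cells under AL (-0.49, SE 0.17, edgeR adjusted p = 0.183), with no overlap between the groups, and DESeq2 called it.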
